A study of Mus musculus with 12 samples.

Results

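The AP-1 family is described here in mouse hearts after ischemic preconditioning (IP). Its members are the Fos genes Fos, Fosb, Fosl1 and Fosl2, the Jun genes Jun, Junb and Jund, and the related factors Atf3 and Maff. They were selected by gene symbol, with earlier results of these data known, and they are 9 of the 20972 genes named on the array, with 14 of its 45101 probe sets. Of these, 11 probe sets lay above the filter on low signals and were tested, and every one of the 9 genes had at least 1 of them. The study set hearts of A2BAR-/- mice, which lack the A2B adenosine receptor encoded by Adora2b, against wild-type hearts, each with and without IP. The groups were A2BAR-/- IP hearts, A2BAR-/- control hearts, wild-type IP hearts and wild-type control hearts, with 3 arrays in each. All mice were male, 12 weeks old and of the BL6/C57 strain. IP was given in situ as 4 rounds of 5 min of myocardial ischemia, each with 5 min of reperfusion, and the left ventricular area at risk was frozen after a final reperfusion of 2 h. The labels call the controls untreated in some fields and sham operated in another. They state that wild-type mice were purchased, and elsewhere that littermates served as controls. They do not say whether each array held RNA of a single mouse, and the p-values therefore rest on array-to-array spread, which may be technical. The labels name no cell-type-specific promoter or Cre for the deletion.

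AP-1 is a dimer of basic leucine zipper (bZIP) proteins, usually a Fos protein with a Jun protein, that binds DNA at TGACTCA or at the closely related cAMP response element. Fos, Fosb, Jun and Junb are textbook immediate early genes, whose transcription starts without new protein synthesis when MAP kinases activate factors already bound at their promoters. Atf3 is a stress-induced bZIP protein of the ATF/CREB group that can act as a repressor, and Maff is a small Maf protein that has no activation domain of its own and pairs with larger bZIP factors. In heart muscle these genes are known to respond to ischemia, reperfusion and stretch.

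The 150 bases before the start sites of members with a letter match to these elements are shown because 6 members hold such a match. The sequences are those of RefSeq on GRCm38.p6, 5′ to 3′ on the strand of the gene. Capitals mark matches to the 8-letter element TGACNTCA, or to the 5-letter form TGACG, which reads CGTCA where it lies on the other strand.
Fos, chr12:85473740-85473889, plus strand: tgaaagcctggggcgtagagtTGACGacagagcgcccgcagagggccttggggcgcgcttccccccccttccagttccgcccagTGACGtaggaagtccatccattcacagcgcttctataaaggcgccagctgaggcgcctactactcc
Fosb, chr7:19310046-19310195, minus strand: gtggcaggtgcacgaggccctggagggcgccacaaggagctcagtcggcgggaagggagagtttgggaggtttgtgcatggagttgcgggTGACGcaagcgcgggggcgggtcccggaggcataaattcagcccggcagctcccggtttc
Jun, chr4:95052223-95052372, minus strand: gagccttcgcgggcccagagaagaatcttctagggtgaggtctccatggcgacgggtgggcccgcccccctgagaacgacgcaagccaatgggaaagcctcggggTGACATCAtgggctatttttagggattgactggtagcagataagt
Junb, chr8:84978749-84978898, minus strand: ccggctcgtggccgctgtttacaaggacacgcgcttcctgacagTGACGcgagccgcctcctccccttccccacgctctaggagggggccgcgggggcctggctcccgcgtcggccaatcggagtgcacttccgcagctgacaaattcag
Atf3, chr1:191183334-191183483, minus strand: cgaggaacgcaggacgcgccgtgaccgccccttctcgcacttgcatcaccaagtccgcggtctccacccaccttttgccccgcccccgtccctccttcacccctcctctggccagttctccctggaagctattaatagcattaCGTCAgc
Maff, start site 2, chr15:79347370-79347519, plus strand: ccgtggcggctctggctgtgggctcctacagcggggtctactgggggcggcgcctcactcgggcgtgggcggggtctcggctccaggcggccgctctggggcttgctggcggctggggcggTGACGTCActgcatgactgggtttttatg
Maff, start site 3, chr15:79348252-79348401, plus strand: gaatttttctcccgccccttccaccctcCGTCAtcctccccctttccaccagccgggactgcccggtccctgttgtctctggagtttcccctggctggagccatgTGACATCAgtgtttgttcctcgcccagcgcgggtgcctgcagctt
The table held 8 of the 9 members with 10 start sites, and Fosl1 was not among them. A match stood within these 150 bases at 7 start sites of 6 members, and none stood at Fosl2, Jund and start site 1 of Maff. The 8-letter element stood 45 to 38 bases before the start of Jun (TGACATCA), 29 to 22 bases before start site 2 of Maff (TGACGTCA, which also holds the 5-letter form on each strand) and 45 to 38 bases before start site 3 of Maff (TGACATCA). Among all 32851 promoter entries, searched on both strands over the same length, 5.70% held TGACNTCA, 13.3% held TGACG and 2.84% held TGACTCA. The last of these stood in none of the 10 windows. TGACG, read on either strand, stood before Fos, Fosb, Junb, Atf3 and start sites 2 and 3 of Maff. The share of all promoters with either element was not counted, so the 7 start sites have no like share beside them. These matches describe letters only.

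The values are MAS5 signals, the brightness of a probe set in arbitrary units, and levels are compared between groups and not between genes. Array medians lay between 66.7 and 81.3 units. Total signal, over probe sets with a value on every array, was highest on the wild-type IP arrays. It was 3.78e+07 to 3.80e+07 units there and 3.60e+07 to 3.71e+07 units on the other arrays. Adora2b, the targeted gene, averaged 53.9 units in A2BAR-/- IP hearts and 44.4 units in A2BAR-/- control hearts, against 176 units in wild-type IP hearts and 61.7 units in wild-type control hearts. Its control arrays overlapped between the genotypes, and the labels do not state whether its probe set lies in the deleted part. On the wild-type control array numbered 3, an unbroken run of 1425 probe sets was at exactly 0. These had a median of 639 units on the other arrays and were treated as missing. Both probe sets of Fosl1 and the brighter probe set of Jun fall in that run, so their wild-type control values rest on 2 arrays. The second A2BAR-/- control array had the lowest signal of its group in 7 of the 9 members. The 9 cardiomyocyte markers were present in every group, with summed signals of 393996 to 415664 units in A2BAR-/- IP hearts, 395356 to 430301 units in A2BAR-/- control hearts, 455329 to 468647 units in wild-type IP hearts and 389868 to 428943 units in wild-type control hearts.

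IP hearts had more RNA of 5 of the 9 AP-1 genes than control hearts in both genotypes. Among these, the call of Junb in A2BAR-/- hearts did not hold in every setting. Fosl1 passed the filter on low signals through its IP arrays, so its place among the tested probe sets depends on its rise. Its control signals were near the bottom of the scale. Atf3 was about 30-fold and 42-fold higher, Maff and Fosl1 were 5-fold to 10-fold higher, and Fosl2 and Junb about 3-fold higher. Fosb and Jund passed the test in wild-type hearts, and Fos and Jun passed it in neither genotype. In the test of IP against control (limma, Benjamini-Hochberg adjusted p under 0.05), 5 of the 11 member probe sets were higher and 0 lower in A2BAR-/- hearts, where 4.22% of all 27022 tested probe sets were higher, 4.63% lower and 8.85% changed in either direction. In wild-type hearts 7 of the 11 were higher and 0 lower, where 5.4% of all were higher, 6.75% lower and 12.1% changed in either direction. The median log2 change of the member probe sets was 1.08 in A2BAR-/- hearts and 1.49 in wild-type hearts, beside -0.05 and -0.03 over all tested probe sets. Of all tested probe sets, 2.89% were higher past the threshold in both genotypes, and 5 members were among them (Atf3, Maff, Fosl1, Fosl2 and Junb). All IP arrays stood above all control arrays of the genotype for those 5 members in A2BAR-/- hearts, as for 10.9% of all tested probe sets, and for 8 members in wild-type hearts, as for 12.6%. In bulk tissue a change in the number of cells of a type and a change in RNA per cell cannot be told apart.

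**Figure D1:**
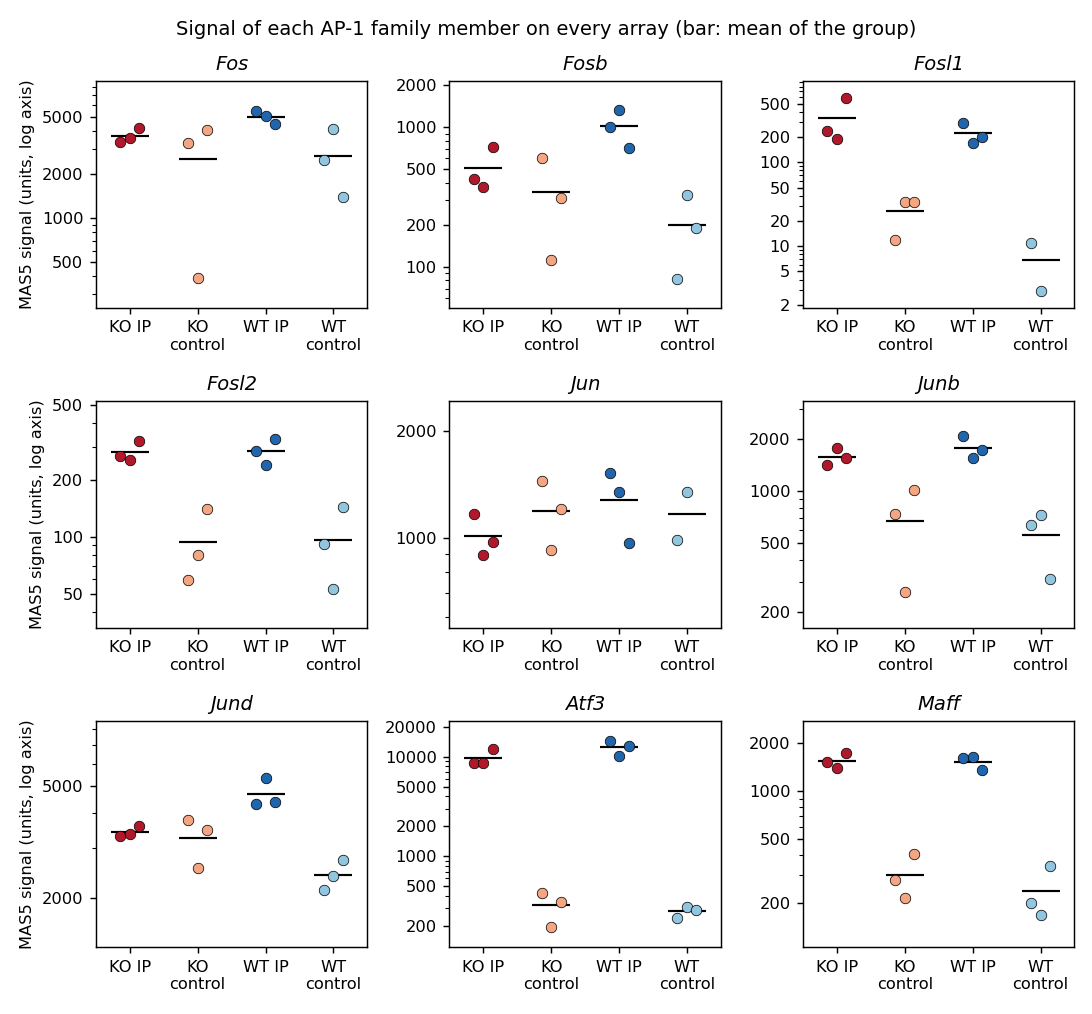
MAS5 signal (units, log axis) of the brightest probe set of each member on every array, as points, with the mean of each group as a bar. The IP arrays of Atf3 lie between 8573 and 14412 units, above all control arrays, whereas those of Jun overlap the control arrays in both genotypes.

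Atf3 showed the widest gap between IP and control hearts among the 9 members. Its probe set 1449363_at, on chromosome 1, had 8676, 8573 and 11923 units in A2BAR-/- IP hearts, against 428, 194 and 345 units in A2BAR-/- control hearts. In wild-type hearts it had 14412, 10063 and 12876 units after IP, against 239, 306 and 290 units in controls. All 6 IP arrays stood far above all 6 control arrays, and within each treatment the genotypes overlapped. On the log2(signal + 16) scale Atf3 was higher by 4.90 ± 0.22 (SE) in A2BAR-/- IP hearts than in their controls, a 29.8-fold change (adjusted p = 2.43e-08), and by 5.40 ± 0.22 in wild-type IP hearts, a 42.1-fold change (adjusted p = 5.98e-09). In each genotype this change ranked 5 among the 27022 probe sets tested, counted from the largest increase.

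Maff, the small Maf protein, also rose in both genotypes. Its probe set 1418936_at, on chromosome 15, had 1526, 1400.2 and 1729.7 units in A2BAR-/- IP hearts, against 279, 214 and 403 units in A2BAR-/- control hearts. Wild-type IP hearts had 1611, 1632 and 1359 units, against 201, 169 and 343 units in wild-type control hearts. IP and control arrays did not overlap, and the genotypes overlapped within each treatment. The increase was 2.36 ± 0.23 log2 in A2BAR-/- hearts (5.12-fold, adjusted p = 1.31e-05) and 2.67 ± 0.23 log2 in wild-type hearts (6.35-fold, adjusted p = 4.00e-06).

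Among the Fos genes, Fosl1 and Fosl2, which encode Fos-related proteins without the strong activation domain of Fos, rose in both genotypes. Fosl1, at probe set 1417487_at on chromosome 19, had 235, 189 and 581 units in A2BAR-/- IP hearts, against 12.0, 33.9 and 33.5 units in A2BAR-/- control hearts. It had 294, 171 and 199 units in wild-type IP hearts, against 10.9 and 2.94 units on the 2 wild-type control arrays with a value. The control arrays were near the bottom of the scale, and whether signals of this size lie above background was not tested. The probe set passed the filter on the mean of all arrays through its IP arrays. Its A2BAR-/- and wild-type means were 8.29 and 7.86 log2 after IP, against 5.36 and 4.50 log2 in controls. Both control means lay below that of a Jund probe set, 1440265_at, which the filter dropped at a mean of 5.55 log2. The increase was 2.93 ± 0.39 log2 in A2BAR-/- hearts (7.62-fold, adjusted p = 0.000342) and 3.36 ± 0.44 log2 in wild-type hearts (10.3-fold, adjusted p = 0.000251). With an offset of 1 in place of 16 these changes were 3.57 and 4.98 log2, and in the authors' deposited table they were 1.91 and 1.67 log2. A dimmer Fosl1 probe set, 1417488_at, lay below the filter and had 46.7 to 149.7 units in A2BAR-/- IP hearts, against 3.01 to 36.7 units in A2BAR-/- control hearts. It had 24.7 to 52.4 units in wild-type IP hearts, against 3.13 to 6.04 units in wild-type control hearts. Its IP arrays were above its control arrays in both genotypes, as they were for the brighter probe set.

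Fosl2, at probe set 1422931_at on chromosome 5, had 266, 255 and 321 units in A2BAR-/- IP hearts, against 59.0, 79.8 and 141 units in A2BAR-/- control hearts. Wild-type IP hearts had 283, 239 and 327 units, against 91.5, 52.9 and 144 units in wild-type control hearts. The IP groups had nearly equal means of 281 and 283 units, as did the control groups at 93.3 and 96.1 units. The increase was 1.50 ± 0.30 log2 in A2BAR-/- hearts (2.84-fold, adjusted p = 0.00564) and 1.49 ± 0.30 log2 in wild-type hearts (2.81-fold, adjusted p = 0.00515). Another probe set listed under Fosl2 and a second symbol was not used.

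Fosb, whose protein pairs with Jun proteins in the same way as Fos, had 427, 374 and 722 units in A2BAR-/- IP hearts, against 603, 112 and 312 units in A2BAR-/- control hearts (probe set 1422134_at, chromosome 7). In wild-type hearts it had 1001, 1344 and 709 units after IP, against 81.4, 329 and 190.0 units in controls. Wild-type IP arrays stood clear of wild-type control arrays, while the A2BAR-/- groups overlapped. The wild-type change was 2.39 ± 0.50 log2 (5.25-fold, adjusted p = 0.00595). In A2BAR-/- hearts the difference was 0.77 ± 0.50 log2, with a 95% confidence interval of -0.29 to 1.82 (adjusted p = 0.398). Without the second A2BAR-/- control array the A2BAR-/- difference of Fosb (1422134_at) was 0.16 log2.

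Fos itself varied widely among control hearts. Its probe set 1423100_at, on chromosome 12, had 3364, 3548 and 4172 units in A2BAR-/- IP hearts, against 3265, 388 and 4026 units in A2BAR-/- control hearts. It had 5478, 5043 and 4448 units in wild-type IP hearts, against 2504, 4116 and 1403 units in wild-type control hearts. The IP arrays of each genotype were tight, with SDs of 423 and 517 units, whereas the SDs among control arrays were 1919 units in A2BAR-/- hearts and 1365 units in wild-type hearts. Wild-type IP and control arrays did not overlap, although the spread among controls was wide. The differences were 1.08 ± 0.60 log2 in A2BAR-/- hearts (adjusted p = 0.316, interval -0.21 to 2.37) and 1.02 ± 0.60 log2 in wild-type hearts (adjusted p = 0.310, interval -0.27 to 2.31). Without the second A2BAR-/- control array, which had 388 units, the difference in A2BAR-/- hearts was 0.02 log2, and the wild-type difference of 1.02 log2 had an adjusted p of 0.0219.

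Of the Jun genes, Junb, which competes with Jun for partners and is a weaker activator at single sites, rose in both genotypes. It had 1421, 1768 and 1554 units in A2BAR-/- IP hearts, against 737, 261 and 1022 units in A2BAR-/- control hearts (probe set 1415899_at, chromosome 8). Wild-type IP hearts had 2081, 1555 and 1729.7 units, against 641, 726 and 312 units in wild-type control hearts. IP arrays were above control arrays throughout. The increase was 1.41 ± 0.37 log2 in A2BAR-/- hearts (2.65-fold, adjusted p = 0.0286) and 1.72 ± 0.37 log2 in wild-type hearts (3.30-fold, adjusted p = 0.00773). The call in A2BAR-/- hearts did not hold when any of the 3 A2BAR-/- IP arrays was left out (adjusted p = 0.0607, 0.0827 and 0.0849) or when the second A2BAR-/- control array was left out (change 0.85 log2, adjusted p = 0.0815). It also ended with no intensity trend (adjusted p = 0.0895), with robust eBayes (adjusted p = 0.0992) and with the run of zeros kept (adjusted p = 0.0871).

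Jund, the member that is usually present before any stimulus, rose in wild-type hearts. Its probe set 1449117_at, on chromosome 8, had 3311, 3377 and 3611 units in A2BAR-/- IP hearts, against 3783, 2552 and 3494 units in A2BAR-/- control hearts. It had 4331, 5342 and 4399 units in wild-type IP hearts, against 2130.0, 2389 and 2727 units in wild-type control hearts. The A2BAR-/- groups overlapped, and every wild-type IP array was above every array of the other 3 groups. The wild-type change was 0.95 ± 0.13 log2 (1.94-fold, adjusted p = 0.000372), and the A2BAR-/- difference was 0.09 ± 0.13 log2 (adjusted p = 0.770, interval -0.20 to 0.37). Without the second A2BAR-/- control array the A2BAR-/- difference was -0.083 log2. The other 3 probe sets of Jund were dim, with no array above 89.3 units, and none had IP arrays that stood apart from control arrays in either genotype. The one of them above the filter, 1459964_at, differed by 0.36 log2 in A2BAR-/- hearts and 0.55 log2 in wild-type hearts, and neither passed the test (adjusted p = 0.648 and 0.398).

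Jun, the classical partner of Fos, did not pass the test in either genotype. Its brighter probe set 1417409_at, on chromosome 4, had 1167, 894 and 976 units in A2BAR-/- IP hearts, against 1444, 922 and 1209 units in A2BAR-/- control hearts. It had 1519.98, 1343 and 967 units in wild-type IP hearts, against 985 and 1344 units on the 2 wild-type control arrays with a value. All groups overlapped. The differences were -0.22 ± 0.19 log2 in A2BAR-/- hearts (adjusted p = 0.560, interval -0.63 to 0.19) and 0.12 ± 0.21 log2 in wild-type hearts (adjusted p = 0.768, interval -0.34 to 0.58). The other probe set, 1448694_at, had 705, 648 and 635 units in A2BAR-/- IP hearts, against 1151, 719 and 831 units in A2BAR-/- control hearts. It had 817, 904 and 658 units in wild-type IP hearts, against 799, 1073 and 1057 units in wild-type control hearts. Its differences were -0.41 ± 0.17 log2 in A2BAR-/- hearts (adjusted p = 0.168), where the IP arrays lay below all control arrays, as for 17.8% of all tested probe sets, and -0.29 ± 0.17 log2 in wild-type hearts (adjusted p = 0.305). The probe sets of Jun thus differed in sign in wild-type hearts.

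**Figure D2:**
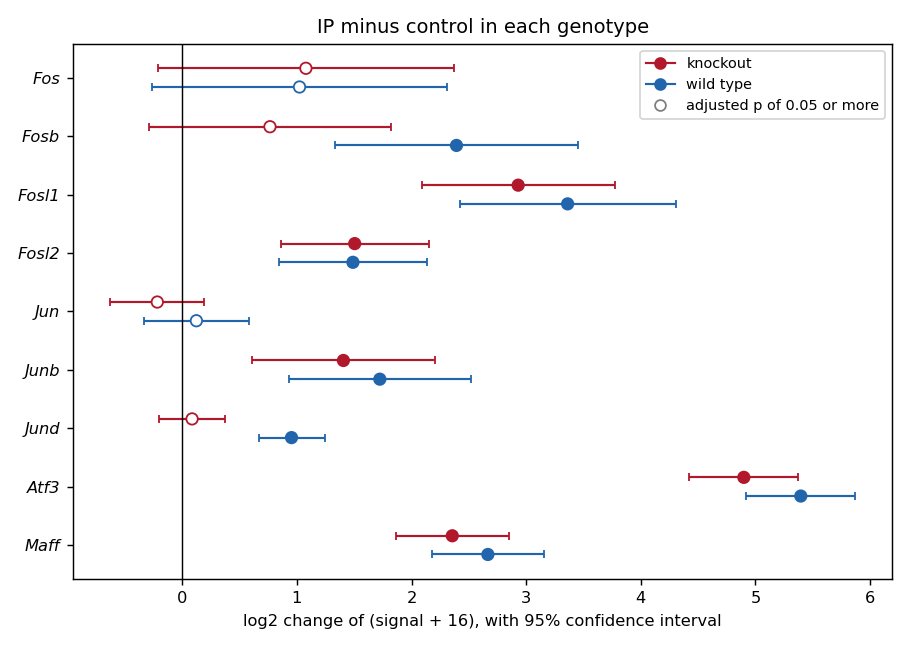
Log2 change of signal + 16 in IP hearts over control hearts for each member, with 95% confidence intervals, in knockout (A2BAR-/-) and wild-type hearts. Filled points passed the test, and the points of Atf3, at 4.90 and 5.40, lie farthest to the right.

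The genotype comparison asks whether hearts without the receptor had other AP-1 levels. No member probe set passed the test between A2BAR-/- and wild-type hearts, 0 of 11 after IP and 0 of 11 in controls (limma), where 0.326% and 0.0481% of all tested probe sets did. At an unadjusted p under 0.05 there was 1 member probe set in each, and both were Jund at 1449117_at, while 14.4% of all tested probe sets after IP and 6.81% in controls lay below that value. After IP, Jund was lower in A2BAR-/- hearts by 0.44 ± 0.13 log2 (difference -0.44, interval -0.73 to -0.16, adjusted p = 0.146), and its arrays did not overlap between the genotypes. In control hearts its difference was 0.42 ± 0.13 log2 (interval 0.14 to 0.71, adjusted p = 0.570), and its arrays overlapped. Fos was also lower on every A2BAR-/- IP array than on any wild-type IP array, with a difference of -0.43 ± 0.60 log2 (interval -1.72 to 0.86, adjusted p = 0.803). Arrays that do not overlap in this direction occurred in 11.6% of all tested probe sets.

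For the other members the intervals after IP were -0.83 to 0.12 log2 for Atf3, -0.48 to 0.51 for Maff, -0.65 to 0.64 for Fosl2, -0.97 to 0.62 for Junb, -0.73 to 0.10 for Jun, -0.41 to 1.27 for Fosl1 and -2.05 to 0.07 for Fosb. In control hearts they were -0.34 to 0.61 log2 for Atf3, -0.16 to 0.82 for Maff, -0.67 to 0.62 for Fosl2, -0.65 to 0.94 for Junb, -0.43 to 0.49 for Jun, -0.08 to 1.81 for Fosl1, -0.42 to 1.69 for Fosb and -1.78 to 0.80 for Fos. Differences of 2-fold in 1 direction or the other lay within the intervals of Fosl1, Fosb and Fos in both treatments, and outside those of Atf3, Maff, Fosl2, Junb and Jun. Without the second A2BAR-/- control array the difference in controls was 0.57 log2 for Fos, against -0.49 with it, and 1.24 for Fosb, against 0.64 with it. It was then 0.70 log2 for Junb (interval 0.12 to 1.29), against 0.15 with it, and 0.53 for Maff (interval 0.02 to 1.04), against 0.33 with it, so that a 2-fold difference lay within the intervals of Junb and Maff too. Atf3 differed by 0.45 log2 without that array, against 0.14 with it. None of these differences passed the adjusted threshold.

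**Figure D3:**
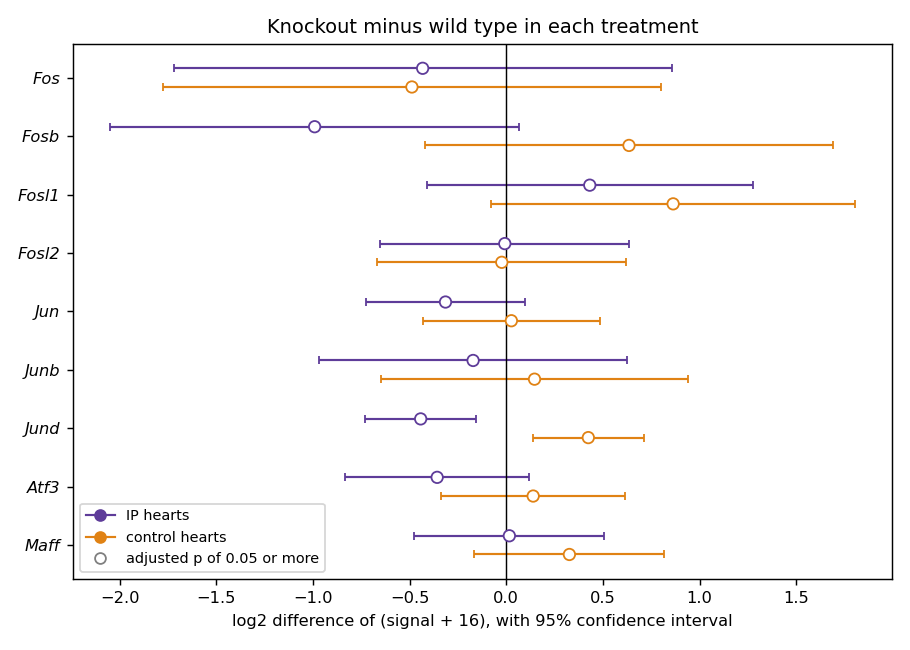
Log2 difference of signal + 16 in knockout (A2BAR-/-) hearts over wild-type hearts for each member, with 95% confidence intervals, after IP and in controls. All points are open because none passed the test, and the points of Jund lie at -0.44 after IP and 0.42 in controls.

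The change with IP was then compared between the genotypes in the same fit. No member passed, with 0 of 11 probe sets below the adjusted threshold and 2 below an unadjusted p of 0.05 (limma), where 0 of all 27022 probe sets passed and 7.4% lay below an unadjusted p of 0.05. Those 2 were Jund at 1449117_at, with a difference of -0.87 ± 0.19 log2 (interval -1.27 to -0.46, adjusted p = 0.409), and Fosb, with -1.63 ± 0.70 log2 (interval -3.12 to -0.13, adjusted p = 0.648). In both, the change was smaller in A2BAR-/- hearts. The authors' deposited table, which carries a decision of -1, 0 or 1 for each contrast, gives -1 for Jund at 1449117_at, with a log2 difference of -0.61. It gives 0 for the other probe sets of Jund and for the other members. That table has decisions other than 0 for 0.842% of 45037 probe sets in this contrast. For Atf3 the difference was -0.50 ± 0.31 log2 (interval -1.17 to 0.17), for Maff -0.31 ± 0.33 (interval -1.01 to 0.38), for Junb -0.32 ± 0.53 (interval -1.44 to 0.81) and for Fosl2 0.02 ± 0.43 (interval -0.90 to 0.93). Without the second A2BAR-/- control array the difference was -1.002 log2 for Fos (interval -1.85 to -0.16), against 0.06 with it, and -0.88 for Junb (interval -1.66 to -0.10), against -0.32 with it. It was then -0.81 log2 for Atf3, -0.51 for Maff and -2.23 for Fosb, and none passed the adjusted threshold.

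Single arrays stood out for several members within a group. The second A2BAR-/- control array, lowest in 7 of the 9 members, was lowest in 33.1% of all tested probe sets. Relative to the median of the group, its log2 value was -3.02 for Fos, -1.44 for Junb and -1.36 for Fosb. The third A2BAR-/- IP array had the highest signal of its group in 7 of the 9 members, against 33.5% of all tested probe sets. With the second A2BAR-/- control array left out, 4 member probe sets were higher in A2BAR-/- hearts and 8 in wild-type hearts, against 5 and 7 with it. The values of all members on an array come from 1 RNA sample, so the members are not independent of each other.

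**Figure D4:**
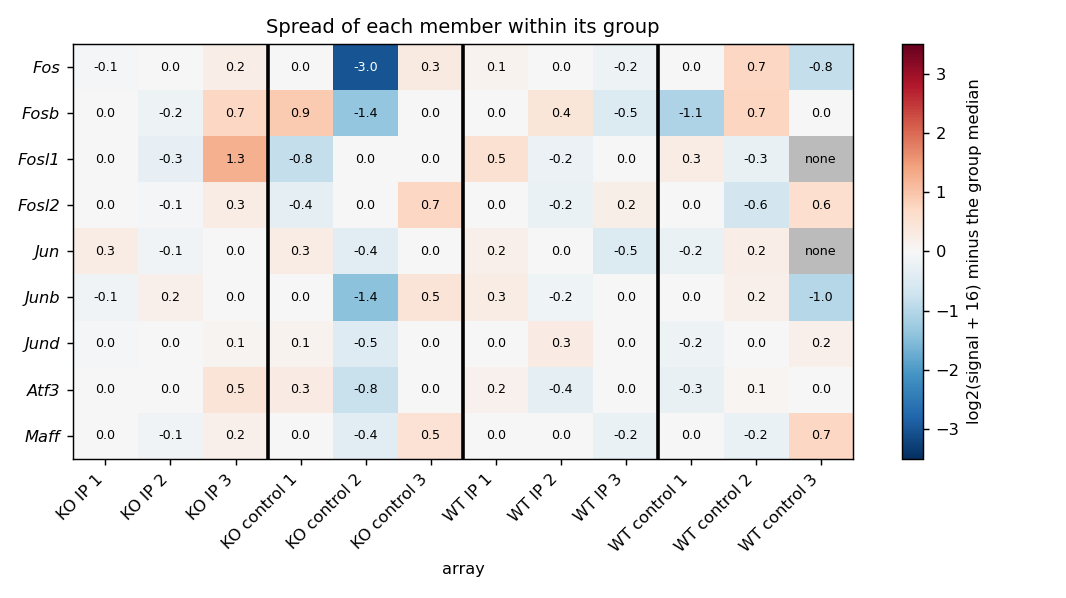
Each member's log2(signal + 16) on each array minus the median of its group, in colour and as a number, with groups divided by black lines and missing values in grey. The second A2BAR-/- control array (KO control 2) is low for 7 of the 9 members, with Fos at -3.0.

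Neutrophil markers rose with IP beside these genes. Of 9 markers 6 could be summed, none was at 0, and 5 of the 6 were higher past the threshold in each genotype. Their summed signal was 7491 to 15741 units in A2BAR-/- IP hearts, against 1287 to 2057 units in A2BAR-/- control hearts. It was 8289.8 to 23952 units in wild-type IP hearts, against 824 to 8584 units in wild-type control hearts. The highest wild-type control value was that of the third array, on which 3 of the 7 members with 3 values (Maff, Fosl2 and Jund) had the highest signal of their group and 2 (Fos and Junb) the lowest. The lowest sum of the wild-type IP arrays was that of the second, on which 4 of the 9 members (Atf3, Fosl1, Fosl2 and Junb) were lowest and 3 highest. The lowest sum of the A2BAR-/- IP arrays was also that of the second, on which 6 of the 9 members were lowest and 1 highest. The highest sum of the wild-type IP arrays was that of the third, on which 4 members were also lowest and 1 highest. In A2BAR-/- IP hearts the first array had the highest sum, with 3 members lowest and 1 highest. The third, highest in 7 members, had 15279 units. Among all tested probe sets with 3 values in a group, each array was lowest in 28.6% to 36.6% and highest in 29.9% to 35.9%. Of 7 endothelial markers, none at 0, 3 were lower in A2BAR-/- IP hearts and 4 in wild-type IP hearts. None was higher past the threshold, but the markers did not all go the same way. Pecam1 had 2132, 1761 and 1892 units in A2BAR-/- IP hearts, against 1573, 1535 and 1590 units in A2BAR-/- control hearts. Their summed signal was 9671 to 10379 units in A2BAR-/- IP hearts, against 11132 to 14485 units in A2BAR-/- control hearts, and 8687 to 9493 units in wild-type IP hearts, against 12227 to 14812 units in wild-type control hearts. Of the 9 cardiomyocyte markers, 0 changed past the threshold in A2BAR-/- hearts and 4 were higher in wild-type IP hearts (Myh6, Actc1, Tnnt2 and Myl3, by 0.19 to 0.25 log2). Of 3 erythroid markers tested, 0 changed in A2BAR-/- hearts, and Hba-a1 was higher in wild-type IP hearts by 0.62 log2. The erythroid sum was 30622 to 33022 units in A2BAR-/- IP hearts, against 28237 to 32745 units in A2BAR-/- control hearts, and 36613 to 45045 units in wild-type IP hearts, against 20685 to 35682 units in wild-type control hearts. Nearly all of this sum was Hba-a1, at 20542 to 44319 units over all arrays. Hbb-b1 had 6.07 to 174 units and Alas2 79.9 to 619 units. Fosb and Jund passed in wild-type hearts and not in A2BAR-/- hearts. In the test of whether the change differed between the genotypes, neither passed (adjusted p = 0.648 and 0.409). No cardiomyocyte or erythroid marker passed that test either. Calls in wild-type hearts alone therefore do not establish a difference between the genotypes. The part of these cell types in the changes of the AP-1 genes was not tested.

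The genes around AP-1 were counted in lists, each gene by its brightest probe set, beside 4.41% higher and 6.14% lower among all 14044 tested genes in A2BAR-/- hearts and 6.01% higher and 8.7% lower in wild-type hearts. Other bZIP factors, which pair or compete with the AP-1 proteins, were mixed. Of 20 tested, 5 rose and 2 fell in A2BAR-/- hearts (median change 0.22 log2), and 6 rose and 3 fell in wild-type hearts (median 0.28 log2). Mafk, a small Maf like Maff, rose by 1.31 ± 0.18 log2 in A2BAR-/- hearts and by 1.54 ± 0.18 in wild-type hearts. Bach1, a repressor that pairs with small Mafs, rose by 0.88 ± 0.12 and 0.78 ± 0.12 log2. Atf4, the main factor of the integrated stress response, rose by 0.71 ± 0.13 and 0.75 ± 0.13 log2. Creb1, which binds the cAMP response element, changed by -0.49 ± 0.14 log2 in A2BAR-/- hearts and by -0.67 ± 0.14 in wild-type hearts. The counts of bZIP genes that fell in A2BAR-/- hearts ranged from 0 to 2 over the other settings.

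The kinases and promoter-bound factors upstream of AP-1 mostly did not pass. Of 22 listed genes 20 were tested, of which 2 rose and 2 fell in A2BAR-/- hearts (median -0.14 log2) and 2 rose and 3 fell in wild-type hearts (median -0.02 log2). Map3k8, a kinase upstream of the ERK pathway, had 388, 563 and 538 units in A2BAR-/- IP hearts, against 24.2, 53.3 and 88.5 units in A2BAR-/- control hearts. It had 469, 415 and 465 units in wild-type IP hearts, against 131, 95.1 and 123 units in wild-type control hearts. Its arrays did not overlap, and it rose by 2.93 ± 0.28 log2 in A2BAR-/- hearts and by 1.82 ± 0.28 in wild-type hearts. Map2k3, which activates p38 kinases, rose by 0.60 ± 0.13 and 0.81 ± 0.13 log2. Elk3, a ternary complex factor of the Fos promoter, changed by -0.91 ± 0.15 log2 in wild-type hearts (adjusted p = 0.00136) and differed by -0.38 ± 0.15 in A2BAR-/- hearts (adjusted p = 0.151). Mapk10, a Jun kinase, changed by -0.37 ± 0.11 log2 in wild-type hearts (adjusted p = 0.0354) and differed by -0.21 ± 0.11 in A2BAR-/- hearts (adjusted p = 0.273). The counts of genes in this list that fell ranged from 0 to 3 in A2BAR-/- hearts and from 1 to 3 in wild-type hearts over the other settings.

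Of the genes listed as AP-1 targets from textbook knowledge, many rose. Of 24 such genes 21 were tested, of which 10 rose and 0 fell in A2BAR-/- hearts (median 1.13 log2) and 13 rose and 0 fell in wild-type hearts (median 1.56 log2). Fosl1, itself a member, is 1 of those that rose in both. Il6, a cytokine of the acute phase response, had 8821, 12648 and 13947 units in A2BAR-/- IP hearts, against 47.0, 21.5 and 146 units in A2BAR-/- control hearts. It had 9689, 10902 and 12219.7 units in wild-type IP hearts, against 24.1, 13.3 and 37.6 units in wild-type control hearts. It rose by 7.32 ± 0.38 log2 in A2BAR-/- hearts and by 8.10 ± 0.38 in wild-type hearts, and its IP and control arrays lay far apart. Its wild-type control signals were near the bottom of the scale, so the size of its change depends on the offset. Whether signals of this size lie above background was not tested. The mean of Il6 over all arrays, on which the filter acted, rested largely on its IP arrays. Ptgs2, the inducible cyclooxygenase, rose by 3.13 ± 0.18 and 3.75 ± 0.20 log2, the second value without the third wild-type control array. Ccl2, a monocyte chemokine, rose by 3.08 ± 0.26 and 3.43 ± 0.26 log2, and Plaur, the urokinase receptor, by 2.15 ± 0.19 and 2.51 ± 0.19 log2. No gene of the 3 lists passed in either genotype comparison or in the difference between genotypes, and 0 of all 14044 genes passed in that difference.

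**Figure D5:**
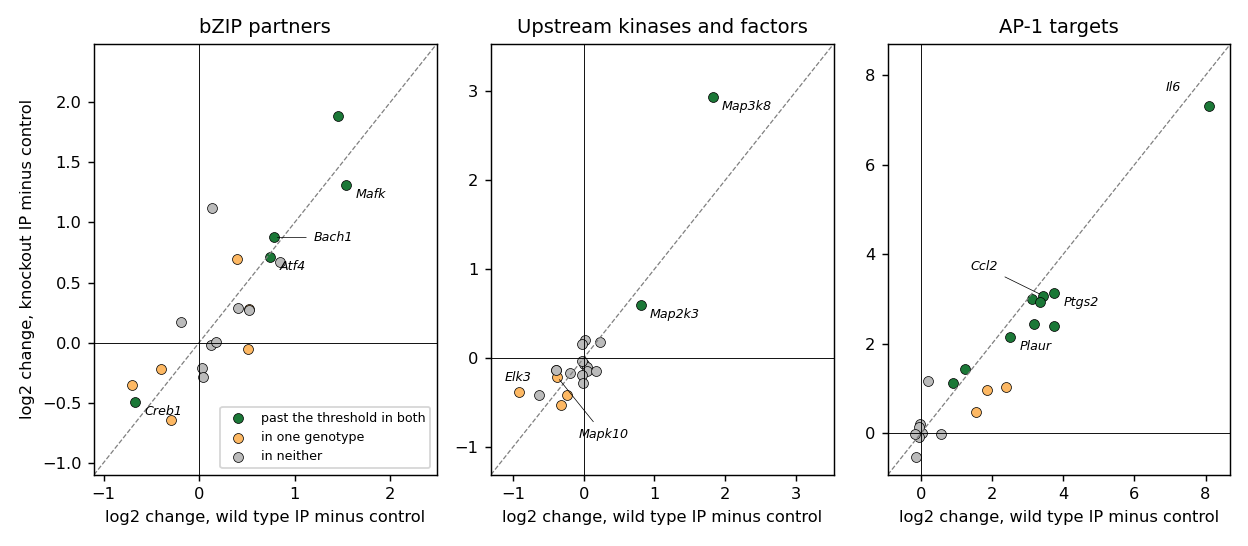
Log2 change with IP in knockout (A2BAR-/-) hearts (vertical axis) and in wild-type hearts (horizontal axis) for the genes of 3 lists, coloured by whether they passed the test, with the dashed line marking equal changes. Il6 lies at 7.32 and 8.10, and most upstream kinases and factors lie near 0.

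The genes whose log2 signals were most like each member over the arrays were found by Pearson's r, as a description without a test. The points share their arrays and their 4 groups, and 6 of the 12 arrays are of IP hearts. Over 12 arrays and 11711 genes, Atf3 was most like Tiparp (r = 0.989), Xirp1 (0.989), Il6 (0.989), Otud1 (0.989) and Adamts1 (0.988). Maff was most like Il6 (0.990) and Adamts1 (0.990), Fosl2 like Il1rn (0.953) and Ripk1 (0.952), and Junb like Zfp36 (0.949) and Dusp27 (0.946). Fosb was most like Chmp4b (0.952) and Tcl1b3 (0.943), Fos like Isl2 (0.919) and D13Ertd787e (0.899), and Jund like Acot2 (0.921) and Eif3e (0.917). Over the 11 arrays with a value and 12550 genes, Fosl1 was most like Atf4 (0.988) and Timp1 (0.977), and Jun like Dnpep (0.876) and Zfp580 (0.872). Il6 and Adamts1 stood beside both Atf3 and Maff, and Atf4, itself a bZIP factor, stood beside Fosl1.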

How the data were processed

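RNA of the left ventricular area at risk was measured on 12 Affymetrix mouse arrays. The deposited values are MAS5 signal intensities, on a linear scale, per the submitters' processing notes. The authors' deposited table of contrasts holds log2 differences and, as a score, a decision of -1, 0 or 1, per the file headers. How both were computed is not stated in them. No genome build is stated for its positions.

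Symbols were updated by Entrez identifier, through which the 4 probe sets of Jund were found under an older symbol. The members and gene lists were chosen with earlier results of these data known. Runs of at least 100 zeros were set to missing, and 64 array controls were left out of 45101 probe sets. Signals were not normalized again, and were transformed to log2(signal + 16), which makes fold changes of low signals smaller than a smaller offset would. Probe sets at or below the 40th percentile of the mean were dropped, and the 27022 left were fitted with limma 3.58.1 (R 4.3.3), with a mean per group over all 12 arrays, 8 residual degrees of freedom and eBayes with an intensity trend. Tests were two-sided, with p-values adjusted by Benjamini-Hochberg over all 27022 probe sets and a threshold of 0.05. The fit was tested on simulated data. Each member is described by its brightest probe set. From each list up to 4 genes past the threshold with the smallest p in wild-type hearts are named, and for likeness the 5 genes of highest r for Atf3 and 2 for each other member, passing over RIKEN, Gm and LOC symbols. Alternatives were other offsets (1 and 64), quantile normalization, other filters, other eBayes settings, array weights, a summary by gene, a replicate block, zeros kept, each array left out, and the authors' deposited table. The number of arrays limits the precision, and no depth applies to array signals. Promoter sequences are RefSeq's on GRCm38.p6. Protein sequences were not analysed here.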

Additional observations from a re-analysis of the deposited data

Results flagged for a closer look

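The change of Jund with IP differed between the genotypes by -0.87 log2 (probe set 1449117_at, A2BAR-/- minus wild type), with an unadjusted p of 0.000393 in the test of the difference and an adjusted p of 0.409. IP and control arrays overlapped in A2BAR-/- hearts, and in wild-type hearts all 3 IP arrays were above all 3 control arrays. Leaving out each array in turn gave differences from -1.04 to -0.75 log2, with adjusted p from 0.116 to 0.755. The change of Fosb differed by -1.63 log2, with an unadjusted p of 0.0351 and an adjusted p of 0.648, and the differences with each array left out were from -2.23 to -1.09 log2. At an unadjusted p of 0.05, 2 of the 11 member probe sets were singled out in this way, where 7.4% of all tested probe sets lay below that value, and neither passed the adjusted threshold.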

How the results depend on the processing

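The counts of member probe sets past the threshold stayed within 1.5 times their main values in the comparisons of IP with control and of the genotypes, at 4 to 6 in A2BAR-/- hearts (main value 5) and 6 to 8 in wild-type hearts (main value 7). The count for the difference between the genotypes was 0 in every fit and 1 (Jund) in the authors' deposited table. Of the called members, Junb in A2BAR-/- hearts was the one that lost its call where it was tested. Fosl1 kept its calls in the 12 of 13 other settings where it had a value. It was not tested with the filter at the 60th percentile. The following values changed sign, none of them past the threshold, and the cause was not tested. With the mean of all probe sets of each gene, Jun differed by -0.065 log2 between IP and control in wild-type hearts and by -0.032 between the genotypes in controls. These are averages of 1417409_at and 1448694_at, set beside the main values of 1417409_at alone. For Maff the genotype difference after IP, 0.02 log2, was -0.00079 with quantile normalization, -0.0082 with array weights and -0.11 in the authors' deposited table. The authors' deposited table also turned the genotype differences of Fosl2 after IP (0.0035), of Junb in controls (-0.0028) and of Jun in controls (-0.078), and the difference between the genotypes in the change of Fosl1 (0.25), which was 0.035 with an offset of 64. With each array left out, values ranged from -0.10 to 0.34 log2 for the wild-type change of Jun at 1417409_at and from -0.083 to 0.20 for the A2BAR-/- change of Jund at 1449117_at. Genotype differences after IP ranged from -0.068 to 0.087 for Maff, from -0.12 to 0.10 for Fosl2, from -0.034 to 0.74 for Fosl1 and from -0.12 to 0.39 for Jund at 1459964_at. In controls they ranged from -0.091 to 0.45 for Atf3, from -0.33 to 0.28 for Fosl2, from -0.25 to 0.70 for Junb, from -1.09 to 0.57 for Fos, from -0.19 to 0.25 for Jun at 1417409_at and from -0.32 to 0.015 for Jun at 1448694_at. Differences between the genotypes in the change with IP ranged from -0.28 to 0.33 for Fosl2, from -0.88 to 0.077 for Junb, from -1.002 to 0.66 for Fos, from -0.26 to 0.075 for Jun at 1448694_at and from -0.46 to 0.055 for Jund at 1459964_at. Same-numbered arrays did not deviate together (18 pairs, correlations from -0.07 to 0.07, 0 over 0.1), so the numbers were not taken to pair the arrays. A fit with the replicate number as a block gave 5 member probe sets in A2BAR-/- hearts, 7 in wild-type hearts and 0 in the other comparisons, and Junb in A2BAR-/- hearts had an adjusted p of 0.0413. Counts over all 27022 probe sets moved more, from 1238 to 2651 in A2BAR-/- hearts (main value 2391), from 1906 to 3405 in wild-type hearts (main value 3282), from 11 to 313 between the genotypes after IP (main value 88) and from 8 to 27 in controls (main value 13). With the third wild-type control array left out, 1 probe set passed for the difference between the genotypes, against 0 with it.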
